A study of Mus musculus with 1677 samples.

Results

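The ribosome biogenesis factors described here are 37 genes, picked by name, out of the 24533 genes of the study's raw count table. Each was compared between time-restricted feeding (TRF) and ad-libitum feeding (ALF) in 2 parts of the day, and its peak time was estimated, in each of 22 mouse tissues. The animals were wild-type C57BL/6J mice of an age of 10 weeks at purchase. Both feeding groups first ate chow for 2 weeks in 12-h light and 12-h dark cycles, and then a Western diet (45% fat, 17% sucrose) for 7 weeks. TRF mice had this diet for 9 h a night, between ZT13 and ZT22, and ALF mice had it at all hours. ZT, zeitgeber time, is the number of hours since the lights came on. Tissues of each group were collected every 2 h at 12 clock times, which gave 518 TRF and 517 ALF libraries. No lean or chow-fed group was analysed here, so both groups share the diet.

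The clock times ZT14 to ZT22, when TRF mice had food, are called the feeding window, and ZT0 to ZT12, when they had none, the fasting window. ALF mice could eat in both. Most tissues had 10 libraries per feeding group in the feeding window and 14 in the fasting window. The labels do not say which libraries came from separate animals, so the p-values measure the spread between these libraries.

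Ribosome biogenesis begins in the nucleolus, where RNA polymerase I transcribes the ribosomal DNA into a long precursor. Small nucleolar ribonucleoproteins (snoRNPs) guide its methylation and pseudouridylation, the small subunit processome folds and cuts it, and further factors build the 40S and 60S subunits and hand them to the cytoplasm. The process takes a large share of a growing cell's energy, is tied to nutrients and growth signals, and its genes are among the best known targets of the transcription factor MYC, which binds the E-box CACGTG.

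The 37 factors cover these steps. Polr1a and Polr1b are the largest and second-largest subunits of RNA polymerase I. The box C/D snoRNP core is represented by Nop56, Nop58 and the methyltransferase Fbl, the box H/ACA type by the pseudouridine synthase Dkc1, and their chaperone by Nolc1. Ncl (nucleolin), Npm1 (nucleophosmin), the GTPase Gnl3 (nucleostemin) and the RNA helicase Ddx21 are abundant nucleolar proteins. Heatr1, Wdr43, Wdr75, Utp15, Utp18, Utp20, Nop14, Noc4l and the U3-binding protein Rrp9 belong to the small subunit processome. The 40S factors are Bysl, the endonuclease Nob1, Ltv1, the GTPase-like Tsr1 and Rrp12. The 60S factors are the rRNA methyltransferase Nop2, Nop16, Noc2l, Noc3l, Rrp1b, the 5S particle loader Rrs1, the Pes1-Bop1-Wdr12 complex, Nip7, Mrto4 and Ppan.

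CACGTG, which reads the same on both strands, was searched in promoters of 300 bases (250 before the transcription start and 50 from it on, RefSeq, GRCm38.p6). It was present in at least 1 promoter of 7 of the 32 factors in that table (21.9%), against 2187 of its 27025 genes (8.09%); counted by promoter, 2349 of all 32851 held it (7.15%). A match describes the letters and shows no binding. The 7 stretches are given because the fold changes of these genes follow, and each shows the motif in capitals with up to 12 bases on either side.
Tsr1 (chr11:74898092-74898121, plus strand, 24 bases after the start): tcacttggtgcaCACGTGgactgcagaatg
Nop2 (chr6:125131811-125131840, plus strand, 60 bases before the start): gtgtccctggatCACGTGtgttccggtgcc
Pes1 (chr11:3963965-3963994, plus strand, 2 bases after the start): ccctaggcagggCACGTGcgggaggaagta
Wdr43 (chr17:71616220-71616249, plus strand, 17 bases after the start): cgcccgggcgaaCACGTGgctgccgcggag
Ltv1 (chr10:13193092-13193121, minus strand, 28 bases after the start): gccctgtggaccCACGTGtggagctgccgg
Utp20 (chr10:88826765-88826789, minus strand, 37 bases after the start): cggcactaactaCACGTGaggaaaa
Utp18 (chr11:93885769-93885798, minus strand, 20 bases before the start): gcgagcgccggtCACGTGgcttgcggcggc

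Libraries held between 2.26 M and 501 M counts, with a median of 11.3 M, and 3 exceeded 100 M. In 15 libraries the profile correlated best with the mean of another tissue, among them 5 ALF libraries of inguinal white adipose tissue (iWAT) that were closest to epididymal white adipose tissue (eWAT), and 1 TRF library each of duodenum and ileum that were closest to the other. These 15 and the 3 deepest were also left out as an alternative, which is given where it moved a result. Defining markers of each labelled tissue were present in every library of it, for example the albumin gene Alb at 52504 to 99410 CPM (counts per M counts of the library, TMM-normalised) in liver. The lowest were the neuronal gene Rbfox3 at 15.8 CPM in the suprachiasmatic nucleus (SCN) and the collecting duct gene Aqp2 at 35.6 CPM in kidney medulla. In bulk tissue, fewer cells of a type and less RNA per cell cannot be told apart.

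Across tissues, the calls made while TRF mice had food were mostly for higher values in TRF. Of the 812 gene-tissue pairs tested, 163 were higher in TRF in the feeding window and 10 were lower (edgeR's quasi-likelihood test, Benjamini-Hochberg adjusted p under 0.05 within each tissue and window). That is 20.1% of the pairs, while the share over all genes and tissues was 7.37%. The shares for lower values were 1.23% and 7.14%. While TRF mice had no food, in the fasting window, 24 pairs were higher (2.96%; all genes 5.35%) and 56 were lower (6.9%; all genes 5.61%). The difference between the 2 windows was itself tested, and it passed in 59 pairs (7.27%; all genes 0.895%), in each case with the larger TRF value in the feeding window. Pairs of 1 tissue share their libraries and are not independent. Of the 528 groups of tissue, clock time and feeding, 21 held 1 library only. Leaving out all libraries numbered 1 or all those numbered 2 leaves at most 1 library in each group. Then 42 to 58 pairs were higher in the feeding window (all genes 1.78 to 2.72%) and 0 differed between windows (all genes 0.00165 to 0.00198%). The shares over all genes thus fell as well.

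**Figure D1:**
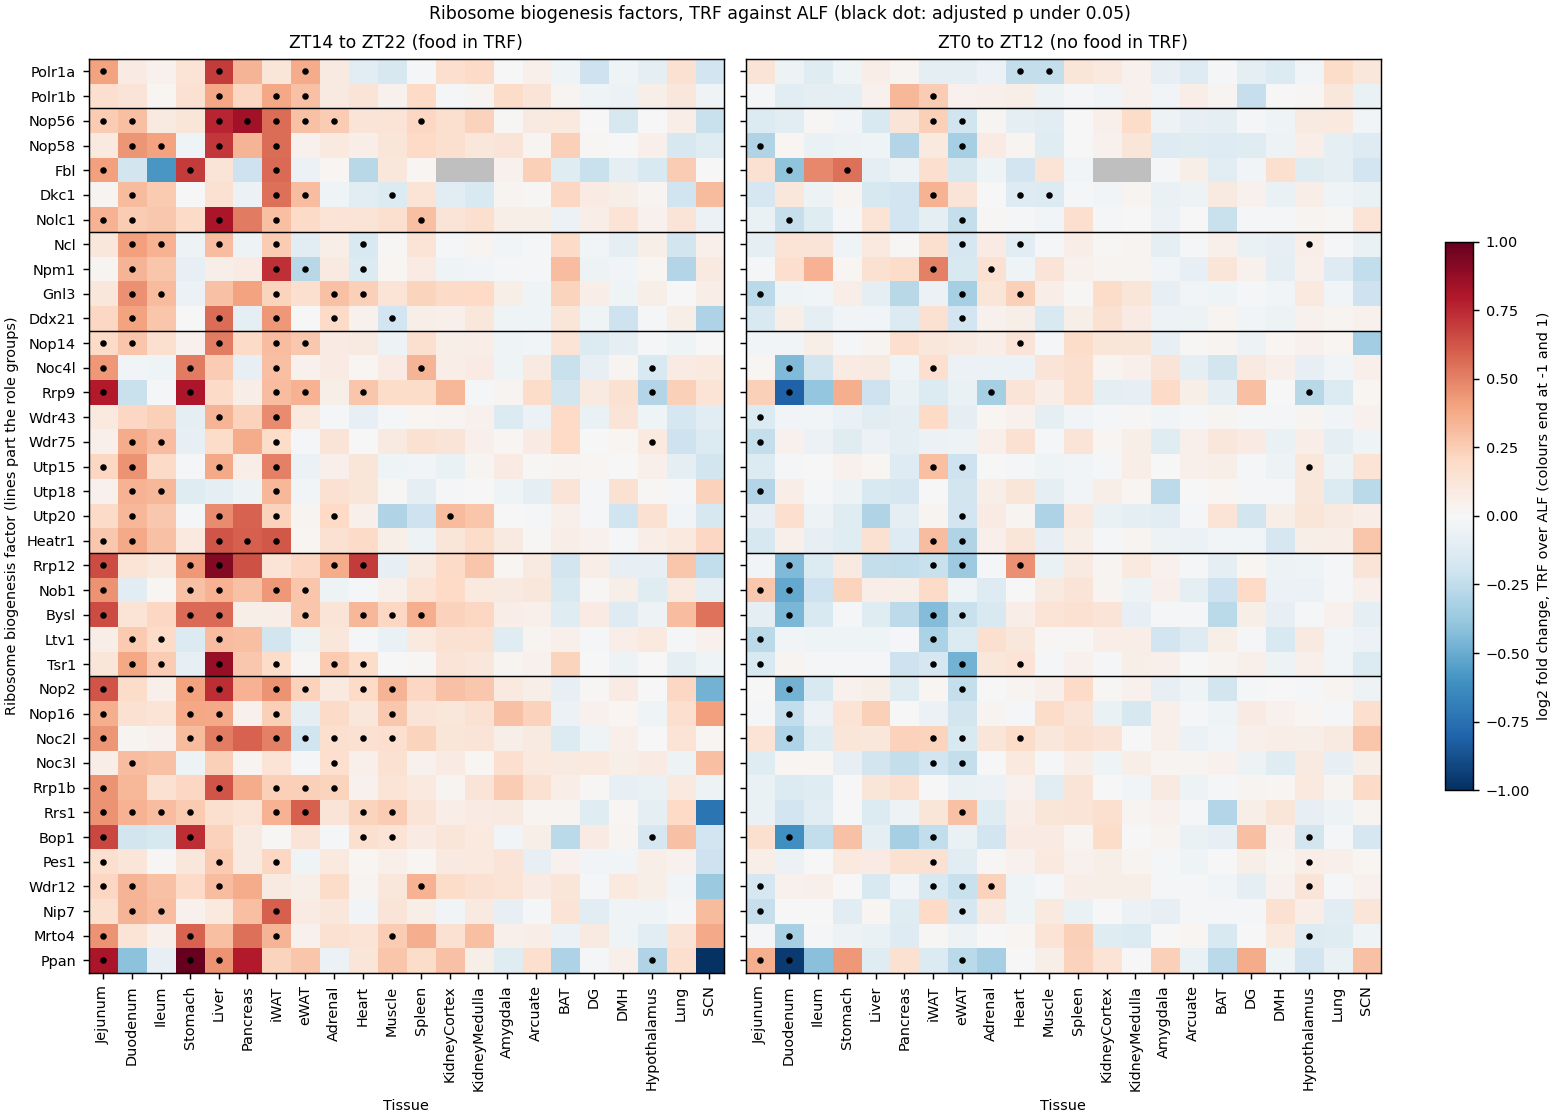
Log2 fold change, TRF over ALF, of the 37 factors (rows, grouped by role with lines between the groups) in 22 tissues (columns) in the feeding window (left) and the fasting window (right); a black dot marks an adjusted p under 0.05, grey marks Fbl where it was not tested, and colours end at -1 and 1. The feeding window holds 163 dots for higher and 10 for lower values, with the densest columns in iWAT (29), liver (24), jejunum (22) and duodenum (20); the fasting window holds 24 and 56.

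The heat map of fold changes shows an uneven spread of calls over tissues. At least 1 factor was higher in TRF in the feeding window in 14 tissues, and none was in 8: amygdala, arcuate nucleus, brown adipose tissue (BAT), dentate gyrus, dorsomedial hypothalamic nucleus (DMH), kidney medulla, lung and SCN. At an unadjusted p under 0.05, between 0 and 2 factors were higher in TRF in 6 of these 8, 10 were in kidney medulla and 5 in the lung, where 5 others were lower. Factors lower in TRF at that level included Nop56, Ncl and Ddx21 in the DMH, Polr1a in the dentate gyrus and Bop1 in BAT. DESeq2 also called 0 higher in each of the 8 tissues. The fold change was above 0 in 596 of the 812 pairs in the feeding window, against 371 in the fasting window. No share over all genes is given beside these counts.

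In the jejunum, 22 of 37 factors were higher in TRF in the feeding window (all genes 16.8%) and none was lower. All 37 fold changes were above 0, between 0.03 for Npm1 and 0.82 for Ppan on the log2 scale, with a median of 0.21 against -0.01 for all genes. The 60S factors led with 10 of 12 called, and the 40S factors followed with 3 of 5, while 0 of the 4 abundant nucleolar proteins passed. These role counts ran along transcript GC content. Of the 22 called factors 18 had over 50% GC, and the nucleolar genes had 42.4 to 46.3%. Ddx21, a nucleolar gene, passed in a fit with offsets for GC content. Nop2, which methylates the large rRNA, had a lowest value of 47.1, a median of 71.1 and a highest of 83.8 CPM in TRF, against 34.9, 42.9 and 65.6 CPM in ALF. Its log2 fold change was 0.63 ± 0.09 (SE, n = 10 each; edgeR adjusted p 3.3e-06), and 7 of 10 TRF libraries lay above every ALF library. The 2 groups of Bysl (bystin, chromosome 17, 47599331 to 47611492, minus strand, GRCm38) did not overlap at all. Bysl had 26, 30.4 and 33.5 CPM in TRF and 17.9, 18.6 and 24.3 CPM in ALF (lowest, median, highest), a log2 fold change of 0.65 ± 0.10 (edgeR adjusted p 7.2e-06).

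Rrp9, the U3-binding protein (chromosome 9, 106475963 to 106485424, plus strand), had 9.2, 16.1 and 22.7 CPM in TRF jejunum and 6.97, 8.82 and 13.4 CPM in ALF jejunum. The log2 fold change was 0.79 ± 0.11 (edgeR adjusted p 3.8e-06), with 8 of 10 TRF libraries above all ALF libraries. The snoRNP chaperone Nolc1 had 114, 138 and 158 CPM in TRF, against 93.1, 106 and 135 CPM in ALF, which was 0.35 ± 0.08 higher on the log2 scale (edgeR adjusted p 0.00082). Polr1a, the catalytic subunit of RNA polymerase I, had 36.5, 46.7 and 62.2 CPM in TRF, against 29.8, 36.3 and 45 CPM in ALF, and rose by 0.40 ± 0.09 (edgeR adjusted p 0.00055), with 5 of 10 TRF libraries above the ALF range. Ddx21 overlapped widely (125, 179 and 241 CPM in TRF; 127, 149 and 190 CPM in ALF) and did not pass, with 0.21 ± 0.09 and an edgeR adjusted p of 0.089. It was called once offsets removed each library's trend with transcript GC content (0.31, adjusted p 0.013) and once boundary times were left out (0.30, adjusted p 0.015).

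By clock time, jejunal Bysl and Nop2 were higher at ZT14 than at ZT12 in both feeding groups, and Bysl then stayed near its ZT14 level in TRF. Bysl averaged 12.4 CPM at ZT12, 30.3 at ZT14, 30.8 at ZT16, 30.7 at ZT18, 32 at ZT20 and 27.7 at ZT22 in TRF. In ALF the same times gave 11.7, 21.2, 18.6, 18.1, 18.5 and 19.8 CPM. Nop2 in TRF averaged 40.5 CPM at ZT12 and 77.7 at ZT14, and then declined to 52.6 CPM at ZT22, while ALF averaged 34.8, 54.1 and 41.9 CPM at these times. The ALF mean of Nop2 at ZT14 stands on libraries of 42.7 and 65.6 CPM, the higher one from replicate 2, which was also the highest for Bysl (24.3 CPM, against 18.1 CPM in the other). Bysl and Nop2 both differed between windows, Bysl by 0.75 ± 0.13 on the log2 scale (edgeR adjusted p 0.00075).

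In the fasting window 9 jejunal factors were lower in TRF (all genes 15.9%) and 2 were higher (all genes 16.6%). Utp18, of the small subunit processome, had 18.5, 21.9 and 26.9 CPM in TRF and 24, 26.3 and 31 CPM in ALF, a log2 fold change of -0.29 ± 0.06 (n = 14 each; edgeR adjusted p 0.00027). Nop58 had 76.8, 88.3 and 118 CPM in TRF against 91.6, 115 and 141 CPM in ALF (-0.30 ± 0.06, edgeR adjusted p 0.00084), and its adjusted p was 0.059 with GC offsets. The other 7 were Ltv1, Gnl3, Wdr75, Nip7, Wdr43, Wdr12 and Tsr1, and the 2 that were higher were Nob1 (0.27) and Ppan (0.36). The effect of feeding differed between the windows for 23 of 37 factors (all genes 6.21%). With GC offsets the count in the feeding window was 33 higher, and in the fasting window 3 lower and 0 higher. With the libraries numbered 1 or 2 left out, the feeding-window count was 9 or 14, the count lower in the fasting window 7 or 0, and the count of differences between windows 0.

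Alongside these genes, adipocyte markers differed in the jejunum: 6 of 8 were higher in TRF in the feeding window, with a summed level of 349 to 577 CPM in TRF and 202 to 350 CPM in ALF. Of 5 erythroid markers tested, 4 were higher, and of 10 intestinal epithelial markers 2 were lower. The part of cell composition in the result was not tested.

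In the liver, 24 of 37 factors were higher in TRF in the feeding window (all genes 12.1%) and none was lower. For the fasting window, edgeR and DESeq2 called 0, with 3 at an unadjusted p under 0.05. The median log2 fold change in the feeding window was the largest of the 22 tissues, 0.35 against -0.01 for all genes, and the values ran from -0.09 for Utp18 to 0.92 for Rrp12. Both polymerase I subunits, all 5 of the 40S factors and 7 of 12 of the 60S factors passed. Tsr1, a 40S assembly factor with an E-box just after its start (sequence above), had 26.4, 36.9 and 56 CPM in TRF, against 14.3, 20.9 and 40.5 CPM in ALF (0.87 ± 0.13, n = 10 each; edgeR adjusted p 1.4e-05). Only 3 of 10 TRF libraries passed the highest ALF library, which was replicate 2 of ZT14, but TRF was higher at 5 of 5 clock times. Rrp12, which helps export pre-ribosomes in yeast, changed most, by 0.92 ± 0.18 (edgeR adjusted p 0.00027).

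The polymerase subunit Polr1a had 20.5, 31.6 and 46.6 CPM in TRF liver and 11.5, 20.7 and 26.6 CPM in ALF liver, 0.70 ± 0.12 higher (edgeR adjusted p 7.3e-05). Nop14 had 17.9, 21.3 and 27.1 CPM in TRF and 13, 15.3 and 19.2 CPM in ALF (0.51 ± 0.09, edgeR adjusted p 8.4e-05). In Nop14 9 of 10 TRF libraries and in Polr1a 7 of 10 were above every ALF library. The box C/D protein Nop58 had 18.5, 26.2 and 46.7 CPM in TRF, against 10.6, 18.2 and 27.9 CPM in ALF (0.71 ± 0.12, edgeR adjusted p 9.9e-05). The helicase Ddx21, which did not pass in the jejunum, had 39.9, 57.8 and 75.8 CPM in TRF liver, against 23.9, 40.9 and 47.3 CPM in ALF liver (0.56 ± 0.11, edgeR adjusted p 0.00032). Bysl (22.3, 27.5 and 32.7 CPM in TRF; 12.9, 19.1 and 24 CPM in ALF) and Noc2l (33.5, 38.7 and 47 CPM in TRF; 19.6, 27.4 and 38.9 CPM in ALF) rose by 0.57 ± 0.09 and 0.51 ± 0.08, each with an edgeR adjusted p of 3.1e-05. Bysl had 8 and Noc2l 5 of 10 TRF libraries above the ALF range.

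Of the 7 genes with the printed E-box stretches, 6 were higher in TRF liver (Tsr1, Nop2, Pes1, Wdr43, Ltv1 and Utp20), as were 17 of the 25 factors whose promoters lacked it. The same counts were 2 of 7 and 16 of 25 in jejunum, 4 of 7 and 14 of 25 in duodenum, 1 of 7 and 8 of 25 in stomach, and 6 of 7 and 20 of 25 in iWAT, while in the jejunal fasting window 4 of 7 and 5 of 25 were lower. The remaining liver calls were Nolc1, Nop56, Heatr1, Rrp1b, Utp15, Ncl, Nop16, Polr1b, Ppan, Wdr12 and Nob1. By clock time Tsr1 averaged 17.0 CPM at ZT12, 44.6 at ZT14, 31.7 at ZT16, 37.4 at ZT18, 38.6 at ZT20 and 40 at ZT22 in TRF. In ALF it averaged 22.9, 33.9, 18.8, 16.6, 18 and 21.6 CPM, so that both groups had a maximum at ZT14 and TRF alone stayed high afterwards. The effect of feeding differed between the windows for 17 factors in liver (all genes 7.68%). GC offsets left 25 higher, leaving out the libraries numbered 1 or 2 left 15 or 11, and those 2 fits left 0 differences between windows. Erythroid markers (3 of 5) and proliferation markers (3 of 11) were lower in TRF liver in the feeding window, and the proliferation list had a median sum of 52.8 CPM in TRF and 64.6 CPM in ALF. Their part in the result was not tested.

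In the duodenum, 20 factors were higher in TRF in the feeding window (all genes 7.27%) and 13 were lower in the fasting window (all genes 19.6%). All 4 abundant nucleolar proteins, 4 of 5 snoRNP genes and 6 of 9 processome genes passed in the feeding window, but 0 of 2 polymerase subunits did. Utp15 had 36.4, 45.7 and 56.5 CPM in TRF, against 28.7, 33.9 and 40.9 CPM in ALF (0.45 ± 0.09, n = 10 each; edgeR adjusted p 0.0025). The nucleolar GTPase Gnl3 had 63.6, 71 and 108 CPM in TRF and 49.7, 55.6 and 66.7 CPM in ALF (0.46 ± 0.10, edgeR adjusted p 0.0045). Most TRF libraries, 8 for Utp15 and 7 for Gnl3, lay above the ALF range. Gnl3 averaged 50.6 CPM at ZT12 and 86.2 CPM at ZT14 in TRF, while ALF averaged 44.2 and 55.0 CPM.

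Nip7, Tsr1 and Nop58 had the lowest p of their role groups. The 60S factor Nip7 had 43.7, 52.4 and 67.8 CPM in TRF and 34.4, 42.1 and 49.7 CPM in ALF (0.34 ± 0.08, edgeR adjusted p 0.0066). Tsr1 had 74.2, 85.2 and 134 CPM in TRF and 54, 72.1 and 78.5 CPM in ALF (0.39 ± 0.09, edgeR adjusted p 0.0082), with 9 of 10 TRF libraries above the ALF range. Nop58 had 117, 147 and 265 CPM in TRF and 95, 120 and 143 CPM in ALF (0.44 ± 0.11, edgeR adjusted p 0.012). The others that passed were Ncl, Nop14, Ddx21, Wdr75, Heatr1, Utp18, Dkc1, Wdr12, Rrs1, Npm1, Nop56, Ltv1, Noc3l, Nolc1 and Utp20. Polr1b, at 0.13 ± 0.09 (edgeR adjusted p 0.33), did not pass.

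The duodenal factors that were lower in TRF in the fasting window were a different group. Nob1, which cuts the 18S rRNA end, had 12.8, 17.5 and 22.2 CPM in TRF and 14.2, 24.1 and 34.7 CPM in ALF (-0.51 ± 0.08, n = 14 each; edgeR adjusted p 2.0e-05). Rrp9 had 4.06, 6.32 and 9.24 CPM in TRF and 7.45, 10.9 and 16.9 CPM in ALF (-0.81 ± 0.13, edgeR adjusted p 2.2e-05). Both were lower in TRF at 7 of 7 clock times, with overlapping ranges. Ppan fell by 0.96 on the log2 scale, and the others were Bop1, Noc4l, Nop2, Bysl, Rrp12, Mrto4, Noc2l, Fbl, Nolc1 and Nop16, with Nolc1 the only factor called in both windows. The transcripts of all 13 had over 50% GC, as had 3 of the 20 that were higher in the feeding window; with GC offsets 10 were lower in the fasting window and 16 higher in the feeding window.

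The duodenal difference between windows passed for 7 factors (all genes 0.949%). Leaving out the libraries numbered 1 or 2 gave 0 or 1 higher in the feeding window, 6 or 12 lower in the fasting window and 0 differences between windows. Pancreatic acinar markers were found in duodenal libraries at summed levels of 1671 to 50309 CPM in TRF and 33.2 to 7267 CPM in ALF in the feeding window, and 4 of 10 were higher in TRF; their part in the result was not tested.

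In the ileum 9 factors were higher in the feeding window (all genes 9.07%), and none was lower. Nip7 had 34.6, 39.8 and 49.2 CPM in TRF, against 27.2, 32.3 and 38.6 CPM in ALF (0.31 ± 0.08, n = 10 each; edgeR adjusted p 0.014). Nop58 had 107, 135 and 161 CPM in TRF and 83.2, 99.3 and 145 CPM in ALF (0.40 ± 0.11, edgeR adjusted p 0.018). The ranges overlapped, with 6 and 3 TRF libraries above all ALF libraries. The other 7 were Ncl, Rrs1, Wdr75, Utp18, Ltv1, Tsr1 and Gnl3. No ileal factor (0) passed in the fasting window by edgeR or DESeq2, with 6 at an unadjusted p under 0.05. The feeding-window count was 5 with GC offsets or with no filter on low counts, 13 with boundary times left out, 13 with replicate number as a block, and 0 or 3 with the libraries numbered 1 or 2 left out.

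The stomach had 13 factors higher in the feeding window (all genes 16.1%), all with transcripts over 50% GC, and 7 with GC offsets. Bop1, of the complex that processes the 60S precursor, had 25.3, 36.6 and 54.1 CPM in TRF and 14.5, 20.8 and 33.6 CPM in ALF (0.74 ± 0.12, n = 10 each; edgeR adjusted p 0.00033). Nop2 had 21, 28.3 and 33.1 CPM in TRF and 15.4, 21.7 and 23.4 CPM in ALF (0.40 ± 0.07, edgeR adjusted p 0.00038), with 9 of 10 TRF libraries above the ALF range but an adjusted p of 0.079 with GC offsets. Noc4l had 13.6, 15.1 and 23 CPM in TRF and 9.97, 11.8 and 13.5 CPM in ALF, with no overlap (0.52 ± 0.10, edgeR adjusted p 0.00073). Ppan rose by 1.01 ± 0.21 (edgeR adjusted p 0.0016), and the others were Bysl, Noc2l, Rrp12, Rrp9, Mrto4, Fbl, Nop16, Nob1 and Rrs1. Fbl alone passed in the fasting window (all genes 0.735%), with 6.7, 8.22 and 12.7 CPM in TRF and 3.55, 5.53 and 8.54 CPM in ALF (0.55 ± 0.15, n = 14 each; edgeR adjusted p 0.048). The windows differed for 2 factors (all genes 0.607%), and for 0 with GC offsets or without the libraries numbered 1 or 2, where the feeding-window counts were 10 and 0. All 8 skeletal muscle markers tested were higher in TRF stomach in the feeding window (median sum 66.2 CPM in TRF and 23.3 CPM in ALF); their part was not tested.

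In the pancreas, the median log2 fold change in the feeding window was 0.27 and 31 of 37 were above 0, but only Nop56 and Heatr1 passed, with 8 TRF and 10 ALF libraries (all genes 0.127%). Nop56, a scaffold of the methylating snoRNPs, had 32.1, 50.1 and 91.8 CPM in TRF and 21.1, 34.4 and 41.9 CPM in ALF (0.84 ± 0.17, edgeR adjusted p 0.021). Heatr1, which acts in polymerase I transcription and the processome, had 22.6, 30 and 51.3 CPM in TRF and 17.4, 21.1 and 27.4 CPM in ALF (0.60 ± 0.13, edgeR adjusted p 0.036). Of the 8 TRF libraries, 7 for Nop56 and 5 for Heatr1 were above the ALF range. Ppan, which did not pass, was at 105 CPM in the only TRF library of ZT16, against a mean of 33.6 CPM in ALF, and the highest Nop56 value came from that library. The fasting window gave 0 calls by edgeR and DESeq2, with 5 at an unadjusted p under 0.05. The feeding-window count was 1 with boundary times left out, 5 by DESeq2, and 0 with the libraries numbered 1 or with those numbered 2 left out.

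The white fat depots were fitted separately, and no difference between them was tested. In iWAT 29 of 37 factors were higher in TRF in the feeding window, in a tissue where 29.4% of all genes were, and all 9 processome genes, 5 of 5 snoRNP genes and 4 of 4 abundant nucleolar proteins were among them. Noc2l had 71.1, 83.0 and 92.3 CPM in TRF and 51.1, 57.4 and 69.4 CPM in ALF (0.50 ± 0.08, n = 10 each; edgeR adjusted p 1.9e-05). Nop2 had 33.9, 41.6 and 48.2 CPM in TRF and 27.2, 29.2 and 33.5 CPM in ALF (0.45 ± 0.08, edgeR adjusted p 3.2e-05). For both, every TRF library lay above every ALF library. Npm1, a chaperone of nucleolar assembly, changed most, with 127, 182 and 269 CPM in TRF and 82, 112 and 149 CPM in ALF (0.73 ± 0.16, edgeR adjusted p 0.00049).

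The same direction held in iWAT for Utp15 (20.7, 25.8 and 30.1 CPM in TRF; 15.6, 17.8 and 22.0 CPM in ALF), at 0.50 ± 0.10 (edgeR adjusted p 0.00013). Nop56 had 39.7, 52.1 and 57.3 CPM in TRF and 28.6, 33.2 and 48.2 CPM in ALF (0.56 ± 0.11, edgeR adjusted p 0.00016). The polymerase subunit Polr1b had 19.1, 22.0 and 25.4 CPM in TRF and 13.7, 16.9 and 20.2 CPM in ALF (0.39 ± 0.09, edgeR adjusted p 0.0004). Nob1 had 19.2, 24.7 and 32.8 CPM in TRF and 15.7, 18.5 and 23.1 CPM in ALF (0.43 ± 0.10, edgeR adjusted p 0.00052). Between 6 and 9 of the 10 TRF libraries of these 4 genes were above the ALF range.

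In the fasting window of iWAT 9 factors were higher (all genes 25.6%) and 7 lower (all genes 23.8%). Bysl had 19.5, 22.1 and 31.9 CPM in TRF and 21.5, 32.2 and 35.9 CPM in ALF (-0.43 ± 0.06, n = 14 each; edgeR adjusted p 4e-06), and Ltv1 had 28.8, 35 and 45.3 CPM in TRF and 34.9, 47.4 and 52.9 CPM in ALF (-0.32 ± 0.07, edgeR adjusted p 0.0004). Windows differed for 3 factors (all genes 0.828%). Without the 5 ALF libraries closest to eWAT (ZT2 replicate 1, and both of ZT10 and of ZT20), 22 were higher in the feeding window, 1 higher and 4 lower in the fasting window, and 1 differed between windows. Leaving out the libraries numbered 1 gave 0 calls in each of these, and leaving out those numbered 2 gave 22 higher in the feeding window, 13 higher and 3 lower in the fasting window, and 0 differences. Other cell types moved beside these genes in the feeding window. All 11 lymphocyte markers tested were higher, with summed levels of 611 to 1997 CPM in TRF and 102 to 984 CPM in ALF. Skeletal muscle markers (9 of 10 higher) summed to 18.5 to 19622 CPM in TRF and 32.4 to 1162 CPM in ALF, and 7 of 8 adipocyte markers were lower, at 19579 to 34055 CPM in TRF and 31027 to 40790 CPM in ALF. Their part in the iWAT result was not tested.

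In eWAT the calls were mostly in the fasting window, where 18 factors were lower in TRF (all genes 20.8%) and Rrs1 alone was higher (all genes 19.4%). Tsr1 had 23.2, 32.8 and 58.3 CPM in TRF and 27.8, 48.0 and 56.7 CPM in ALF (-0.47 ± 0.11, n = 14 each; edgeR adjusted p 0.0021), and Gnl3 had 22.1, 31.8 and 48.1 CPM in TRF and 28.7, 39.1 and 46.3 CPM in ALF (-0.33 ± 0.08, edgeR adjusted p 0.0029). Both pairs of ranges overlapped. In the feeding window 11 were higher (all genes 23.7%) and 2, Npm1 and Noc2l, were lower (all genes 25%). Rrs1 had 27.4, 36.6 and 44.3 CPM in TRF and 19.3, 24.6 and 29.5 CPM in ALF (0.60 ± 0.09, n = 10 each; edgeR adjusted p 1.2e-05). Polr1a had 49.2, 56.2 and 67.7 CPM in TRF and 33.9, 45.2 and 48.6 CPM in ALF, with no overlap (0.37 ± 0.06, edgeR adjusted p 4.6e-05).

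Polr1a was also among the 7 eWAT factors whose effect differed between windows (0.46 ± 0.08, edgeR adjusted p 0.0023; all genes 2.21%). Leaving out the libraries numbered 1 or 2 gave 4 higher in the feeding window under either, 0 or 8 lower in the fasting window and 0 differences. In eWAT the 15 proliferation markers were all lower in TRF in both windows, with a median sum of 100 CPM in TRF and 281 CPM in ALF in the feeding window. Adipocyte markers (7 of 8 higher) had a median sum of 40650 CPM in TRF and 28168 CPM in ALF, and macrophage markers (6 lower, 1 higher) had 2181 CPM in TRF and 3861 CPM in ALF. Their part in the result was not tested.

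**Figure D2:**
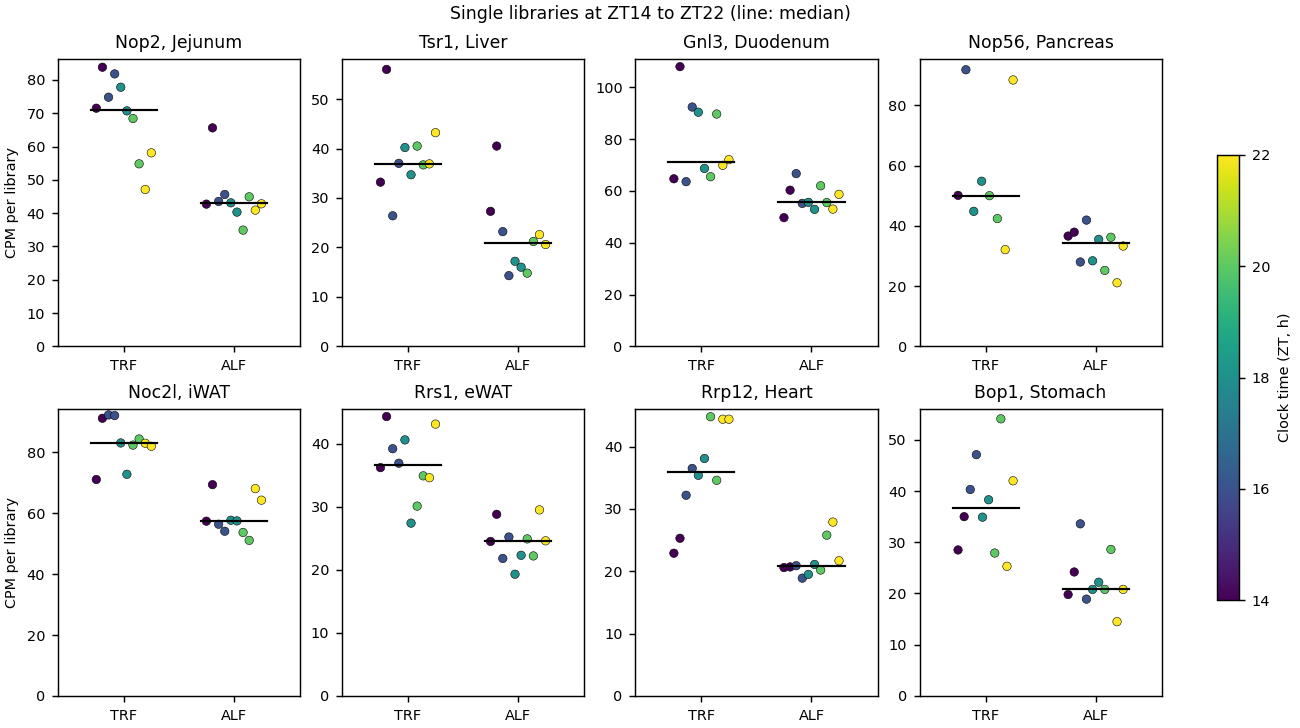
CPM of 1 factor in single libraries of ZT14 to ZT22 in 8 tissues, TRF left and ALF right in each panel, with points coloured by clock time and a line at the median; each vertical axis starts at 0. Every TRF library lies above every ALF library for Noc2l in iWAT, while for Tsr1 in liver 1 ALF library of ZT14, at 40.5 CPM, lies among the TRF values.

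The panels of single libraries also show heart Rrp12, which was higher in TRF in both windows. Rrp12 had 22.9, 36 and 44.8 CPM in TRF heart and 18.9, 20.8 and 27.9 CPM in ALF heart in the feeding window (0.70 ± 0.09, n = 10 each; edgeR adjusted p 1.3e-06). Its fasting-window values were 26.5, 36.2 and 52.0 CPM in TRF and 22.3, 25.6 and 34.9 CPM in ALF (0.46 ± 0.07, n = 14 each; edgeR adjusted p 2e-05). Bysl rose in the feeding window, with 33.4, 44.9 and 53.5 CPM in TRF and 31.8, 35.4 and 39.8 CPM in ALF (0.33 ± 0.06, edgeR adjusted p 8.9e-05). Of 37 heart factors, 9 were higher (all genes 9.88%) and 2 lower (all genes 10.7%) in the feeding window, and 5 were higher (all genes 7.36%) and 3 lower (all genes 8.98%) in the fasting window. Polr1a was among those lower, with 64.4, 69.3 and 82.4 CPM in TRF and 66.3, 85.6 and 98.7 CPM in ALF (-0.24 ± 0.04, edgeR adjusted p 0.0001). The 9 were 6 with GC offsets, and 2 or 1 without the libraries numbered 1 or 2. Of 10 macrophage markers, 6 were higher and 0 lower in TRF heart in the feeding window. Their median sum was 541 CPM in TRF and 415 CPM in ALF. In the fasting window 3 were higher and 0 lower. Their part in the result was not tested.

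Skeletal muscle had 8 factors higher (all genes 8.93%) and 2 lower, Dkc1 and Ddx21 (all genes 8.79%), in the feeding window. Nop2 had 24.3, 27.5 and 32.6 CPM in TRF and 18.9, 22.7 and 24.6 CPM in ALF (0.34 ± 0.06, n = 10 each; edgeR adjusted p 0.00024), and Bysl had 32.3, 38.1 and 49.0 CPM in TRF and 31.2, 34.5 and 37.3 CPM in ALF (0.21 ± 0.06, edgeR adjusted p 0.0089). For Nop2 8 of 10 TRF libraries were above the ALF range. The fasting window had Dkc1 (-0.14 ± 0.04, edgeR adjusted p 0.027) and Polr1a (-0.24 ± 0.08, edgeR adjusted p 0.047) as lower in TRF (all genes 4.42%). The 8 higher factors all had over 50% GC. Their count was 1 with GC offsets, 3 with boundary times left out, 4 with no filter on low counts, and 0 without the libraries numbered 1 or without those numbered 2. Of the fasting-window calls neither passed with GC offsets.

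In the adrenal, 9 factors were higher in the feeding window (all genes 8.59%). Rrp1b had 17.5, 22.8 and 26.6 CPM in TRF and 17.3, 18.7 and 22.6 CPM in ALF (0.22 ± 0.06, n = 10 each; edgeR adjusted p 0.016), and Nop56 had 52.6, 56.8 and 72.0 CPM in TRF and 39.2, 51.0 and 59.4 CPM in ALF (0.25 ± 0.07, edgeR adjusted p 0.019). Both overlapped, and without the libraries numbered 1 or 2 the counts were 0 or 1. Higher in the fasting window were Wdr12, at 20.5, 28.9 and 39.9 CPM in TRF and 21.7, 24.4 and 31.4 CPM in ALF (0.23 ± 0.06, n = 14 each; edgeR adjusted p 0.0072), and Npm1, at 190, 202 and 254 CPM in TRF and 173, 190 and 220 CPM in ALF (0.15 ± 0.04, edgeR adjusted p 0.011), with all genes at 9.07%. Rrp9 was lower (all genes 8.38%), and none of these 3 passed with GC offsets.

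The spleen had 5 factors higher in the feeding window (all genes 7.06%): Bysl, Noc4l, Wdr12, Nop56 and Nolc1. Bysl had 28.3, 39.8 and 49.8 CPM in TRF and 25.9, 31.0 and 36.9 CPM in ALF (0.36 ± 0.09, n = 10 each; edgeR adjusted p 0.012), and Noc4l had 30.4, 39.1 and 52.6 CPM in TRF and 26, 32.4 and 39.5 CPM in ALF (0.34 ± 0.10, edgeR adjusted p 0.02). Proliferation markers moved the same way in these libraries, 12 of 15 higher. Their median sum was 1853 CPM in TRF and 1118 CPM in ALF. Pancreatic acinar markers summed to 35 to 45751 CPM in TRF and 27.3 to 55863 CPM in ALF in the feeding window, and 0 of 10 passed. The part of either list in the result was not tested. The count of 5 was 3 with boundary times left out, and 2 or 0 without the libraries numbered 1 or 2.

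In the hypothalamus 1 factor was called higher (all genes 5.32%) and 4 lower (all genes 9.58%) in the feeding window. Noc4l had 16.4, 18.2 and 23 CPM in TRF and 18.5, 20.9 and 25.3 CPM in ALF (-0.15 ± 0.04, n = 10 each; edgeR adjusted p 0.014), and Rrp9 had 8.48, 12.6 and 15.4 CPM in TRF and 9.67, 16.1 and 18.8 CPM in ALF (-0.29 ± 0.08, edgeR adjusted p 0.02). In the fasting window 4 were higher (all genes 7.93%) and 3 lower (all genes 9.28%). Wdr12 had 41.6, 46.5 and 51.8 CPM in TRF and 39.6, 42.8 and 46.9 CPM in ALF (0.13 ± 0.03, edgeR adjusted p 0.0032), and Bop1 had 28, 35.4 and 42.8 CPM in TRF and 31.8, 39.5 and 47.2 CPM in ALF (-0.18 ± 0.05, edgeR adjusted p 0.0073). All ranges overlapped. The 7 calls for lower values were in transcripts over 50% GC, none of the 12 calls passed with GC offsets, and TRF libraries were shallower, with a median of 22.5 M counts in TRF and 39.1 M in ALF.

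In kidney cortex Utp20, of the small subunit processome, was the single call (all genes 2.95%), with 124, 170 and 202 CPM in TRF and 81.8, 139 and 159 CPM in ALF (0.32 ± 0.09, n = 10 each; edgeR adjusted p 0.029). Of the 10 TRF libraries 6 were above the ALF range. With GC offsets 6 factors were called there, and with boundary times left out 0.

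The rhythms of the same genes were fitted as a cosine of 24 h, with amplitude as the distance from the mean to the peak on the log2 scale. In TRF 327 of the 812 pairs were rhythmic (40.3%; all genes 27.4%), against 88 in ALF (10.8%; all genes 11.7%), by edgeR's F test of each feeding group at an adjusted p under 0.05. A test of the difference between the TRF and ALF rhythms, chosen after seeing the data, passed in 65 pairs (8%; all genes 1.74%). Of these, 25 were in the jejunum (all genes 6.33%), 13 in eWAT (all genes 11.3%), 11 in the liver (all genes 8.71%), 9 in iWAT (all genes 2.58%) and 5 in the heart (all genes 5.18%). Without the libraries numbered 1 or 2, between 104 and 190 pairs were rhythmic in TRF (all genes 7.74 to 13.6%). Between 14 and 17 were in ALF (all genes 2.62 to 3.03%), and 3 or 4 differed (all genes 0.128 to 0.254%).

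**Figure D3:**
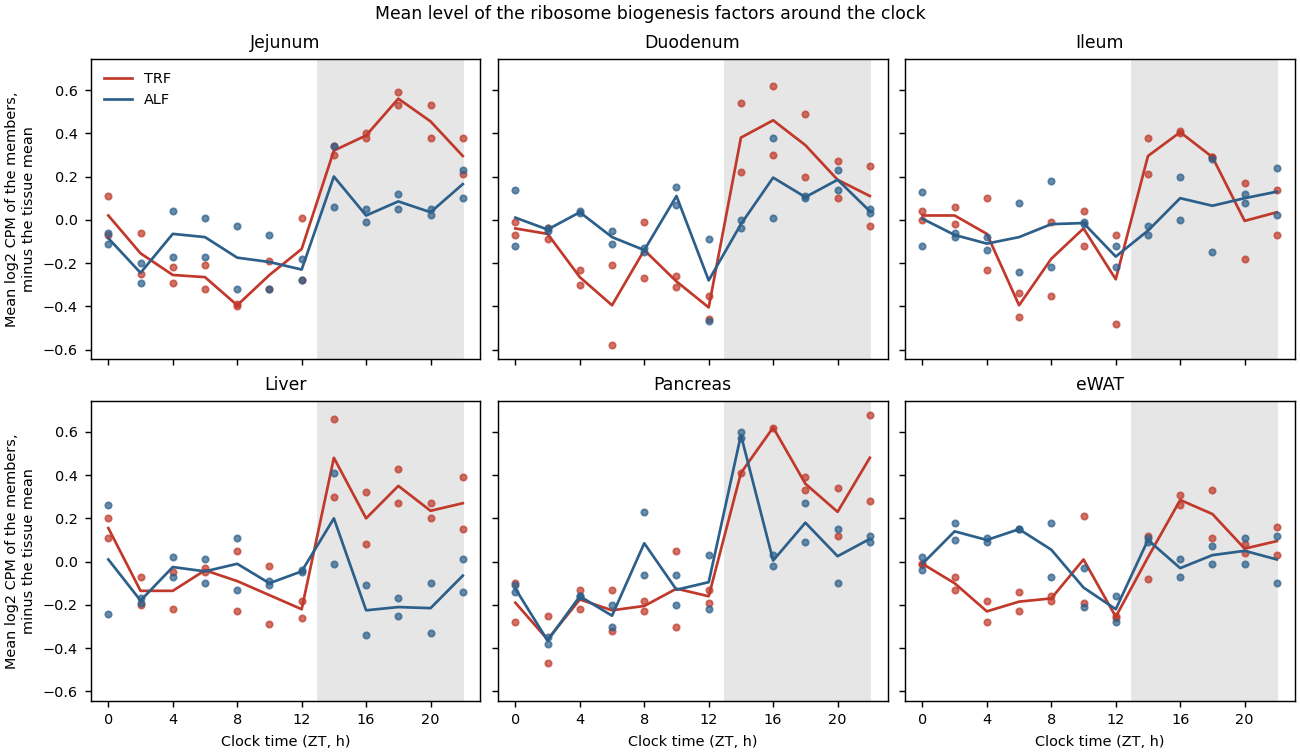
Mean log2 CPM of the 37 factors in each library, relative to the mean of its tissue, against clock time, for TRF and ALF in 6 tissues; lines join the means of each clock time, and the grey band covers the feeding-window samples. In all 6 panels the TRF line is highest between ZT14 and ZT18, and the ALF line has its highest point at ZT14 in jejunum, liver and pancreas, at ZT16 in duodenum, at ZT22 in ileum and at ZT6 in eWAT.

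All 37 factors were rhythmic in the jejunum in TRF (all genes 55.8%), 8 of them in ALF (all genes 14.2%). Their TRF peaks fell between ZT16.9 for Rrp9 and ZT21.2 for Npm1, with SEs of 0.354 to 0.877 h, and amplitudes ran from 0.19 for Pes1 to 0.82 for Bysl. The median amplitude was 0.42 in TRF and 0.14 in ALF, against 0.23 and 0.14 over all genes, and the TRF amplitude was the larger for 37 of 37. Rrp9, Nob1, Nop2 and Polr1b were earliest, and Pes1, Utp20, Ncl and Npm1 latest. The 8 ALF peaks, at ZT16.5 to ZT19.6, lay in the same hours. As the plot of mean level by clock time shows, the mean of the factors peaked at ZT18.5 ± 0.27 (SE) in TRF with an amplitude of 0.44, and at ZT18.6 ± 1.15 in ALF with 0.14.

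In the duodenum 34 factors were rhythmic in TRF (all genes 38.8%) and 2 in ALF (all genes 15%), and all 34 TRF peaks lay between ZT16.7 and ZT19.9. The ileum had 28 in TRF (all genes 45.5%) and 1 in ALF (all genes 3.65%), and the stomach 15 in TRF (all genes 21.4%) and 2 in ALF (all genes 2.9%). Peaks within ZT15 to ZT21 made up 36 of 37 in TRF jejunum, 34 of 34 in TRF duodenum, 27 of 28 in TRF ileum and 15 of 15 in TRF stomach, where 33.8%, 29.2%, 37.2% and 31.3% of all rhythmic genes peaked in these hours. That span is narrower than the hours with food (ZT13 to ZT22), and the counts depend on where it begins and ends. The median amplitude in the duodenum was 0.35 in TRF and 0.12 in ALF, with 0.22 and 0.18 over all genes. TRF peaks of all 15 stomach factors were at ZT16.8 to ZT19.6. Without the libraries numbered 1 or 2, 9 or 24 of the duodenal, 1 or 26 of the ileal and 3 or 1 of the stomach factors were rhythmic in TRF, and 36 of the jejunal factors under either.

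The liver had 24 rhythmic factors in TRF (all genes 49.0%) and 4 in ALF (all genes 25.7%), and the pancreas 22 in TRF (all genes 17.8%) and 1 in ALF (all genes 1.42%). Liver peaks lay between ZT14.2 for Polr1b and ZT1.4 for Noc4l, 21 of 24 within ZT15 to ZT21, where 27.9% of all rhythmic genes of TRF liver peaked. The mean of the factors peaked at ZT18.5 ± 0.801 in TRF (amplitude 0.25). In ALF it peaked at ZT8.5 ± 2.77 with a small amplitude of 0.07, so its time is poorly fixed. In the pancreas, Ppan had an amplitude of 1.10 and Rrp12 of 0.85, and 19 of 22 TRF peaks lay within ZT15 to ZT21, where 29.2% of all rhythmic genes of TRF pancreas peaked. Without the libraries numbered 1 or 2, the rhythmic factors in TRF were 9 or 17 in the liver and 1 or 13 in the pancreas.

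Peaks at ZT15 to ZT21 were also the rule in 3 more tissues. They held 19 of 22 rhythmic factors in eWAT (all genes rhythmic 30.6%), 13 of 17 in iWAT (all genes rhythmic 21.7%) and 15 of 17 in the adrenal (all genes rhythmic 39.2%). With the libraries numbered 1 or 2 left out, the rhythmic factors were 11 or 8 in eWAT, 6 or 11 in iWAT and 4 or 6 in the adrenal. Among all rhythmic genes of these tissues the share of peaks in these hours was 31.6%, 29.2% and 21.1%. The mean of the factors peaked at ZT18.3 ± 0.755 in TRF eWAT, against ZT1.7 ± 1.64 in ALF eWAT, with amplitudes of 0.19 and 0.08.

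**Figure D4:**
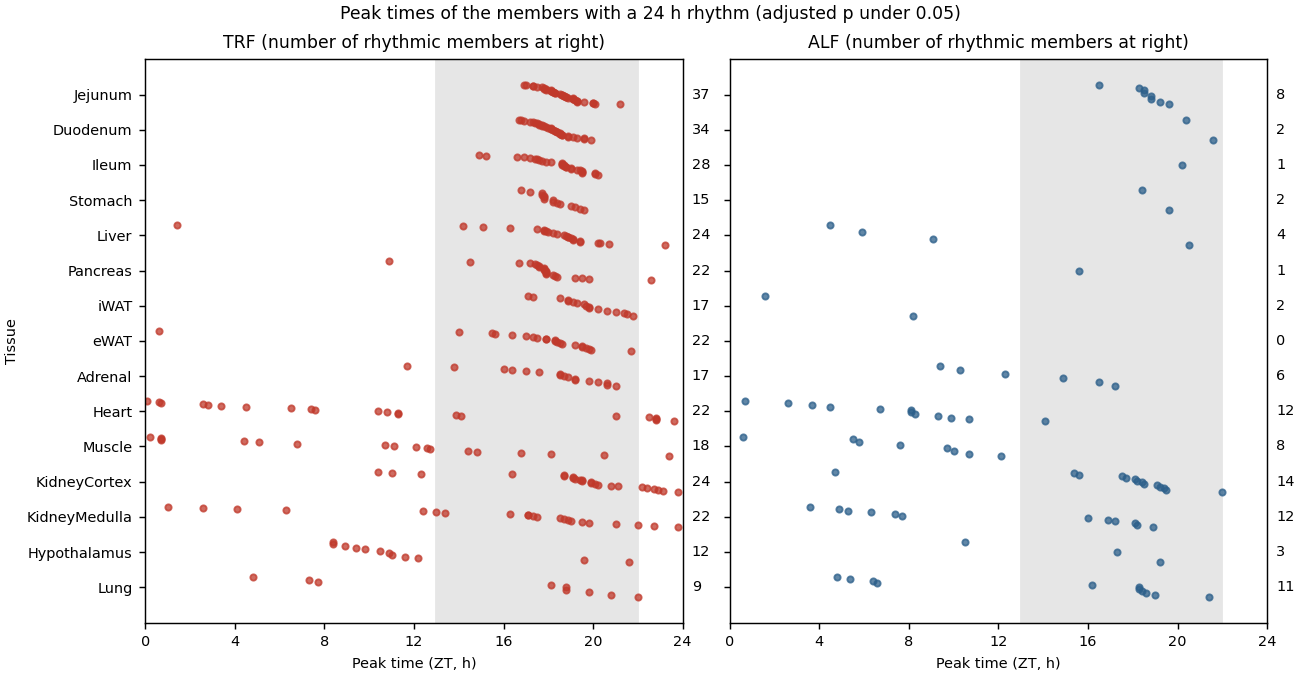
Peak time of each factor with a 24-h rhythm (adjusted p under 0.05), in TRF (left) and ALF (right), by tissue, with the number of rhythmic factors at the right edge of each panel and the hours with food in TRF shaded. In TRF, 36 of 37 jejunal and 34 of 34 duodenal peaks lie within ZT15 to ZT21, while 0 of 22 heart peaks do.

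The heart, muscle and hypothalamus did not share this time, as the plot of peak times shows. In the heart 22 factors were rhythmic in TRF (all genes 51.2%) and 12 in ALF (all genes 33.4%), and no TRF peak fell within ZT15 to ZT21, where 24.6% of all rhythmic genes peaked. A group of Nop2, Utp18, Nolc1, Bysl, Heatr1 and Mrto4 peaked at ZT21.0 to ZT23.6, while Dkc1, Npm1, Nop56, Ncl, Polr1a and Rrs1 peaked at ZT10.4 to ZT14.1. The earliest peak of the first group and the latest of the second lay within the hours with food, close to the ends of that span. Amplitudes were small, 0.09 to 0.28. In muscle, 18 were rhythmic in TRF (all genes 47.0%), with 3 peaks in those hours, and in the hypothalamus 12 (all genes 27.7%), with 1. With the libraries numbered 1 or 2 left out, 9 or 12 were rhythmic in the heart, 1 or 10 in muscle and 1 or 2 in the hypothalamus.

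Both kidney regions had rhythms in each feeding group. Kidney cortex had 24 rhythmic factors in TRF (all genes 46.9%) and 14 in ALF (all genes 31.3%), and kidney medulla 22 (all genes 48.3%) and 12 (all genes 34%). Utp20 had the largest amplitude in TRF cortex, 0.56, with a peak at ZT16.4 ± 0.438. Its amplitude in ALF was 0.43. The mean of the factors in cortex peaked at ZT20.0 ± 0.446 in TRF, and that in medulla at ZT20.3, both within ZT15 to ZT21. The lung had 9 rhythmic factors in TRF (all genes 37.7%) and 11 in ALF (all genes 42.6%). The SCN had 0 in TRF (all genes 4.03%) and 1 in ALF (all genes 5.87%). The arcuate nucleus had 0 in TRF (all genes 3.44%) and 1 in ALF (all genes 0.744%). Counts of 0 and 1 do not set the feeding groups apart. Heatr1 had the largest TRF amplitude in lung, 0.40 at ZT22.0 ± 0.704. The lung count in TRF was 5 without its libraries over 100 M counts (ZT4 replicate 1 and ZT20 replicate 2) and 14 with GC offsets, and the kidney medulla count in ALF was 5 with GC offsets. Leaving out the libraries numbered 1 or 2 gave 9 or 15 in TRF kidney cortex, 3 or 9 in TRF medulla and 1 or 0 in TRF lung.

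Taken by gene, Nop56 and Rrs1 were higher in TRF in the feeding window in 8 of 22 tissues each, Nop2, Noc2l and Bysl in 7, and Nolc1 and Tsr1 in 6. Npm1, Noc3l and Wdr43 were higher in 2 each. Over all genes and tissues the share was 7.37%. The effect differed between windows in 6 tissues for Nop2 and for Bysl, and in 5 for Nolc1 (all genes 0.895%). Noc3l and Ddx21 were rhythmic in TRF in 14 tissues, while Fbl was in 1 of the 20 in which it was tested (all genes 27.4%). Nop14, Rrp1b, Rrs1, Pes1 and Polr1b were called lower in TRF in no tissue in either window. Lower values had a share over all genes of 5.61% in the fasting and 7.14% in the feeding window.

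Of 105 other ribosome biogenesis genes in the table, 50 were higher (all genes 16.8%) and 4 lower (all genes 14.9%) in TRF jejunum in the feeding window. In the liver 42 were higher (all genes 12.1%) and 2 lower (all genes 14.3%), in the duodenum 34 higher (all genes 7.27%) and 3 lower (all genes 7.08%), and in iWAT 61 higher (all genes 29.4%) and 6 lower (all genes 26.7%). The median log2 fold changes were 0.16, 0.19, 0.16 and 0.22 in these tissues, with -0.01, -0.01, 0.00 and 0.02 over all genes. Mybbp1a, a nucleolar MYB-binding protein, rose in the jejunum by 0.43 ± 0.07 (means of 161 CPM in TRF and 119 CPM in ALF; edgeR adjusted p 3.1e-05). The methyltransferase Ftsj3 rose in the liver by 0.66 ± 0.10 (means of 60.8 CPM in TRF and 39.1 CPM in ALF; edgeR adjusted p 2.4e-05). Rbm28 went the other way in iWAT, with means of 76.8 CPM in TRF and 179 CPM in ALF (-1.23 ± 0.16). In the fasting window 32 were lower (all genes 19.6%) and 4 higher (all genes 17.5%) in the duodenum, and 28 lower (all genes 15.9%) and 13 higher (all genes 16.6%) in the jejunum.

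Myc, its partners and their antagonists made up a list of 11 genes, of which 10 were tested in the liver. The list is too short to set its counts apart from the shares of all genes given above. In the feeding window 0 were higher in the jejunum, liver or duodenum. Lower were Mxd1 (-1.03 ± 0.22, edgeR adjusted p 0.00053) and Mycl in the jejunum, and Mycl (-1.20 ± 0.22, edgeR adjusted p 0.00014), Mxi1 and Mxd4 in the liver, where Myc had -0.40 and an edgeR adjusted p of 0.57. Mxd1, Mxi1 and Mxd4 encode antagonists that share MYC's partner MAX. In iWAT 4 were higher, including Mlx, Mxd1 and Myc (0.43, edgeR adjusted p 0.011), and 2 lower. These are mRNA levels and do not give protein activity.

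The fold changes of the factors followed the GC content of their transcripts in some tissues and not in others. GC content of the longest transcript ran from 40.4 to 59.9%, with 19 of 37 factors over 50%. Of the jejunal calls in the feeding window 18 of 22 were over 50%, of the duodenal ones 3 of 20, and of the liver ones 13 of 24. Of those lower in the fasting window, 13 of 13 duodenal factors and 0 of 9 jejunal factors were over 50%. The 2 gut segments thus ran in opposite directions along GC. What part the libraries' GC trends had in these calls was not tested beyond the offsets, which left 33, 16 and 25 factors higher in the feeding window in jejunum, duodenum and liver.

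**Figure D5:**
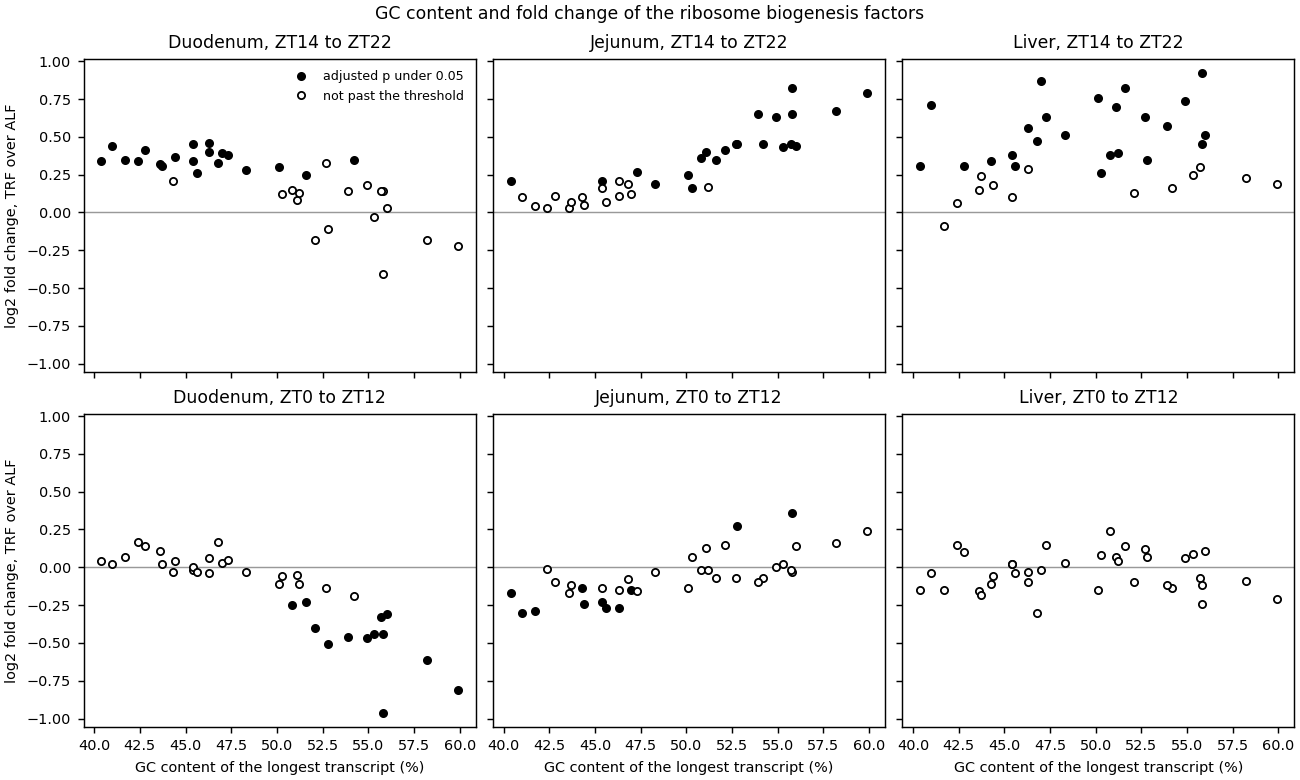
Log2 fold change, TRF over ALF, of the 37 factors against the GC content of the longest transcript (percent) in duodenum, jejunum and liver, for the feeding window (top) and the fasting window (bottom); filled points have an adjusted p under 0.05. Filled points below 0 in the duodenal fasting window all lie over 50% GC, while the liver's filled feeding-window points are spread over 40.4 to 56%.

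Of the 37 factors, 15 have exons that overlap a gene on the other strand, and the sources used here do not state whether counting used strand: Nop56, Nop14, Dkc1, Noc2l, Rrp1b, Rrp9, Bop1, Pes1, Wdr12, Wdr43, Bysl, Tsr1, Gnl3, Polr1a and Heatr1. Mrto4 has 2 pseudogene copies that could share its reads. The levels of these genes are uncertain to that extent.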

How the data were processed

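Total RNA of 22 tissues was sequenced from stranded mRNA libraries, 1035 of them, in 1677 sequencing samples. The authors deposited 1 table of raw expected counts per gene and library (unscaled, 29.6% of values lying midway between whole numbers; 28 ileum libraries hold whole numbers only). Per the submitters' processing notes, CASAVA 1.8, FastQC 0.11.8, STAR 2.5.3a, HOMER 4.10 and mm10 (GRCm38) were used; how the runs of a library were combined is not given in the sources used here. Of 24537 rows, 4 with a duplicated name were left out.

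Counts were rounded, low genes filtered, and each tissue fitted alone over all genes with TMM factors and edgeR 4.0.16's quasi-likelihood test (R 4.3.3), with clock time as a factor and a TRF term for each window, and in a second model a 24-h cosine and sine per feeding group. Amplitudes and peak times came from limma 3.58.1 on log2 CPM (prior count 1). Adjusted p-values are Benjamini-Hochberg within a tissue and window, with 0.05 as threshold. SEs of fold changes come from the F statistic. Labels of 24 to 46 h in ileum and liver were read as the same clock times. The tests were checked on simulated data.

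Every factor is named at least once; values are given for up to 2 factors with the smallest p per tissue, window and, where most of the factors passed one way, role group, if their mean was at least 5 CPM. Other genes named were chosen after their values were seen. The factors and gene lists were chosen with earlier results of these data known. Alternatives were DESeq2 1.42.0 (size factors, Wald test), tests without the filter, a block for the replicate number, leaving out the libraries of each replicate number, offsets for transcript GC content (known for 98.4% of genes), boundary times left out, the 18 libraries set apart left out, and an amplitude of at least 0.25.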

Additional observations from a re-analysis of the deposited data

Results flagged for a closer look

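The effect of feeding on a factor differed between the feeding and the fasting window, by a test of that difference, in 6 tissues. The numbers of factors were 23 in the jejunum, 17 in the liver, 7 in the duodenum, 7 in eWAT, 3 in iWAT and 2 in the stomach, and in each case TRF relative to ALF was higher in the feeding window.

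Single libraries stood apart from the others of their feeding group within ZT14 to ZT22 in 11 of the 90 groups looked at. Groups of 1 tissue share their libraries, and each pools several clock times. No rate expected by chance is therefore set beside this count. In TRF the value that stood apart was Tsr1 in the duodenum at ZT14 replicate 2, with 134 CPM. In ALF 7 of the 11 came from replicate 2 of ZT14: jejunal Nop2 at 65.6 CPM and Bysl at 24.3 CPM, liver Tsr1 at 40.5 CPM, Nop58 at 27.9 CPM and Noc2l at 38.9 CPM, and iWAT Nop56 at 48.2 CPM and Npm1 at 149 CPM, each the highest of its group. The remaining ALF libraries were low or high at other times, Polr1b in the duodenum at ZT16 replicate 1 (53.1 CPM), Utp20 in kidney cortex at ZT22 replicate 1 (81.8 CPM) and Polr1a in eWAT at ZT16 replicate 2 (33.9 CPM).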

How the results depend on the processing

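Counts over the 22 tissues stayed within 1.5 times their value with the size factors or the Wald test of DESeq2, without the filter on low counts, with the replicate block and without the libraries set apart. With the replicate block, 25 pairs were higher and 58 lower in the fasting window, 169 higher and 10 lower in the feeding window, 61 differed between windows, 330 were rhythmic in TRF and 90 in ALF, and 65 differed in rhythm. The labels do not say whether replicate numbers pair the libraries. Over 245 comparisons of TRF with ALF the correlations of same-numbered deviations ran from -0.77 to 0.79, with 81 above 0.1 and 63 below -0.1. Correlations of either sign, spread this widely, cannot decide it. The block moved the ileum's count from 9 to 13.

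Leaving out replicate 1 or 2 gave 2 to 20 higher (all genes 0.708 to 2.83%) and 13 to 28 lower (all genes 0.856 to 3.12%) in the fasting window. In the feeding window 42 to 58 were higher (all genes 1.78 to 2.72%) and 0 to 2 lower (all genes 1.62 to 2.95%). There were 0 differences between windows (all genes 0.00165 to 0.00198%). Rhythmic pairs were then 104 to 190 in TRF and 14 to 17 in ALF, and 3 to 4 differed in rhythm. With boundary times left out 12 were higher in the fasting window (all genes 4.04%). With GC offsets 36 were lower in the fasting (all genes 4.43%) and 4 lower in the feeding window (all genes 5.95%). With an amplitude of at least 0.25, 196 pairs were rhythmic in TRF and 30 in ALF, without a share over all genes to compare. Counts of single tissues under alternatives are likewise given without such a share. They do not show how the factors compare with all genes there. Fits without a replicate number have at most 1 library per clock time and feeding group. The cause of the changes under the other alternatives was not tested.

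With a 12-h harmonic added, the mean level of the factors in TRF peaked (ZT) at 18 in jejunum, 17.1 in duodenum, 16.1 in ileum, 18.4 in kidney cortex, 17.8 in kidney medulla and 5.5 in heart. Without replicate 1 or 2 the heart's peak was at 0.6 or 3.7, and that of the pancreas at 18.7 or 16.9.

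Of 558 values of 62 named results under alternatives, 468 kept their side of the threshold, 87 lost and 2 gained it, and 1 changed sign: duodenal Polr1b in the feeding window without replicate 2 (-0.00, adjusted p 0.99). Losses were 39 and 27 without replicate 1 and 2, 11 with GC offsets, 7 with boundary times left out and 3 with no filter. Depth, at a median of 11.3 M counts, and 2 libraries per clock time limit how small a difference could be detected where 0 factors were called.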

Other observations

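The ALF library of ZT14 replicate 2 had the highest mean level of the 37 factors among the ALF libraries of ZT14 to ZT22 in 10 of 22 tissues, and was among the highest 3 in 14. It was looked for after the values were seen. In liver its mean log2 CPM was 4.54, where the other ALF libraries lay between 3.79 and 4.14 and the TRF median was 4.42. In jejunum it was 5.69 (others 5.34 to 5.58), in iWAT 5.15 (others 4.90 to 5.09) and in the adrenal 5.54 (others 5.29 to 5.53). Replicate 1 of ZT14 was at 4.12 in liver, 5.42 in jejunum and 5.02 in iWAT. In the adrenal it was at 5.53 and in the pancreas at 4.56, where replicate 2 had 4.59. In those 2 tissues both ALF libraries of ZT14 were thus high. The labels do not say whether same-numbered libraries of different tissues come from 1 animal.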
